A study of Mus musculus with 21 samples.

Results

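Excitation-contraction coupling is the step by which a skeletal muscle fibre turns a surface action potential into calcium release, and 10 genes of this machinery were followed here by the histone mark H3K36me3. The genes were chosen by name: Ryr1, Ryr3, Cacna1s, Casq1, Casq2, Atp2a1, Atp2a2, Jph1, Jph2 and Trdn. They are 10 of the 19300 protein-coding genes of at least 2 kb in the RefSeq annotation of the mouse assembly GRCm38.p6, and all 10 were found there. For each gene the value is its cover, the percent of the gene body that lies inside called H3K36me3 peaks in a library.

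The mark was measured by chromatin immunoprecipitation and sequencing in C2C12, a mouse myoblast line that leaves the cell cycle and fuses into contractile myotubes in culture. The wild-type (WT) cells were sampled as myoblasts at day 0, and at day 1 and day 5 in control medium or under methionine restriction, with 2 libraries in each of these 5 groups. Cells labelled as Setd2 knockout (KO) lines 1 and 2 were sampled in the same 5 conditions with 1 library per line, so values of a line have no replicate. The labels name 2 lines, whereas the peak names inside the deposited lists call the same libraries replicates 1 and 2 of a KO group, so whether the contrast between them is one of lines or of replicates is not settled here. All groups share the C2C12 background and carry no other named allele or agent. How the lines were made, whether each is 1 clone, and whether WT replicates came from separate cultures are not given in the sources used here, so p-values measure the spread between these libraries, which may be technical.

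In a muscle fibre the voltage-sensing channel of the transverse tubule touches the ryanodine receptor of the sarcoplasmic reticulum, and its movement opens the receptor so that calcium leaves the store. Calsequestrins hold calcium inside the store, triadin anchors them near the receptor, junctophilins hold the tubule and store membranes together, and pumps of the Atp2a family return calcium to the store. H3K36me3 is laid down over transcribed gene bodies by SETD2, which travels with the elongating polymerase and takes its methyl groups from S-adenosylmethionine, made from methionine. Most of these genes belong to the differentiated fibre, while Atp2a2 also serves cells outside muscle.

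A peak list carries no read depth and no height on a common scale, so the depth behind each value is unknown and counting intervals cannot be had. Cover reports where peaks were called, not how much mark was present. A change in a few cells and a change in all cells cannot be told apart. The WT lists held 63423 to 87398 peaks over 110 to 183 Mb. The lists of KO line 1 held 791 to 64530 peaks over 0.307 to 74.1 Mb and those of KO line 2 held 127 to 13880 over 0.00821 to 7.13 Mb, so every KO list covered less than every WT list. All 6 measured markers of differentiated muscle were listed at 0 in both WT day 0 libraries and all 6 had at least 50% cover in both control libraries of day 5. In each restricted day 5 library only 1 of these 6 reached that level. Of the 5 markers of myoblasts, 4 reached it in each WT day 0 and control library, and 2 did so in each restricted one. All 5 libraries of KO line 2 were at 0 on every marker of both lists. Of 6 markers of cycling cells, 6 reached 50% in both WT day 0 libraries, 3 and 2 in the day 5 control libraries and 1 in each restricted day 5 library. All 6 were called lower from day 0 to day 5 in control medium (limma), beside 15.6% of all tested genes. The 1 left under restriction was Mcm3, at 75.7% and 68.1% against 20.6% and 19.1% in the day 5 control libraries. Under restriction at day 5, 4 of the 6 were called lower and 1 higher, beside 41.5% and 4.32% of all tested genes. Of 6 markers of neurons only Stmn2 had cover in the WT day 0 libraries, with 42.5% and 26.1%, and it had 1.41% and 2.27% in the day 5 control libraries. Snap25, Syt1, Rbfox3, Map2 and Syp had at most 0.271% in any WT library. Of 5 measured markers of heart muscle, at least 4 were at 0 in every library and none passed 4.20%. The part of differentiation and of cell cycle exit in the differences below was not tested.

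The genes differ widely in length, from 10.002 kb for Casq1 to 586 kb for Ryr3. Ryr1 spans chr7:29003340-29125179, Ryr3 chr2:112631354-113217405 and Cacna1s chr1:136052806-136119822. Casq1 spans chr1:172209894-172219895, Casq2 chr3:102086415-102146514 and Trdn chr10:33083483-33476709. Atp2a1 spans chr7:126445858-126463103 and Atp2a2 chr5:122453513-122502225. Jph1 lies at chr1:16942104-17097922 and Jph2 at chr2:163336242-163398049, all on GRCm38. Cover of a body can also come from a second gene on the same bases. The long noncoding RNA gene Gm17224 overlaps 37.9% of Casq1, Gm35750 overlaps 14.4% of Jph2, and annotated genes overlap 9.02% of Trdn and at most 2.13% of each of the other 7.

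The 250 bases before the annotated start are shown for 4 genes whose cover was high at day 5: Ryr1, whose cover was already higher at day 1 than at day 0, and Cacna1s, Casq1 and Casq2, which had under 1% before day 5. The sequences are from RefSeq on GRCm38.p6, read 5′ to 3′ on the gene's own strand. These starts are not always the outer edge of the body used for cover. The windows of Ryr1 and Cacna1s, and those of Atp2a1 and Jph2 named below, reach into that body. Capitals mark matches to the E-box CANNTG, the letters recognised by basic helix-loop-helix factors such as MyoD and myogenin, and to the motif of the MEF2 factors. The windows are chr7:29125152-29125401 on the minus strand for Ryr1, chr1:136052561-136052810 on the plus strand for Cacna1s, chr1:172219896-172220145 on the minus strand for Casq1 and chr3:102086165-102086414 on the plus strand for Casq2.
Ryr1: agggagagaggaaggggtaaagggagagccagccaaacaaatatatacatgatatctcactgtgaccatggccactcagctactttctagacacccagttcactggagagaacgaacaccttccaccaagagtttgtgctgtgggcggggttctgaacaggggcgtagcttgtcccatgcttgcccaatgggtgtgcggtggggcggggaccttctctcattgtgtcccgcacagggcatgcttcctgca
Cacna1s: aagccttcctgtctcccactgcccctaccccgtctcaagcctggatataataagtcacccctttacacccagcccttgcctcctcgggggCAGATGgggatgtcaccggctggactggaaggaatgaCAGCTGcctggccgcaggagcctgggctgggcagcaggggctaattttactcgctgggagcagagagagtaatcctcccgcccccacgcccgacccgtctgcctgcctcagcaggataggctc
Casq1: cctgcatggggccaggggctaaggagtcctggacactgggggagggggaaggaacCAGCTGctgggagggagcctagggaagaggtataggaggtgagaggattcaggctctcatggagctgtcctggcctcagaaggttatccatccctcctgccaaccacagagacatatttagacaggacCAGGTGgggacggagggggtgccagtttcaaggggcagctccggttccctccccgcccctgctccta
Casq2: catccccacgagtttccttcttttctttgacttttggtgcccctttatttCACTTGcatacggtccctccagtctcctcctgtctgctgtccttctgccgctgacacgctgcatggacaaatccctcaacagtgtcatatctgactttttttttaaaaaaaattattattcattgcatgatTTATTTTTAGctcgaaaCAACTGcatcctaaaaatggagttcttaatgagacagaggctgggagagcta

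The E-box CAGCTG stands 123 to 118 bases before the start of Cacna1s and 195 to 190 bases before that of Casq1. It also stands once in the windows of Atp2a1, 55 to 50 bases before its start, and Jph2, whose 2 annotated starts both hold it. Casq1 holds a second E-box, CAGGTG, 67 to 62 bases before its start. Casq2 has E-boxes of other letters and the MEF2 motif 69 to 60 bases before its start. None of these letters were found in the Ryr1 window. Of all 32851 promoter windows of this length, searched on both strands, 4271 hold CAGCTG (13.001%), 17.2% hold CACCTG or its reverse CAGGTG, 66.2% hold CANNTG, which includes both, and 2.92% hold the MEF2 motif. Ryr3, Atp2a2, Jph1 and Trdn have no entry among these windows. A match describes letters, not binding.

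**Figure D1:**
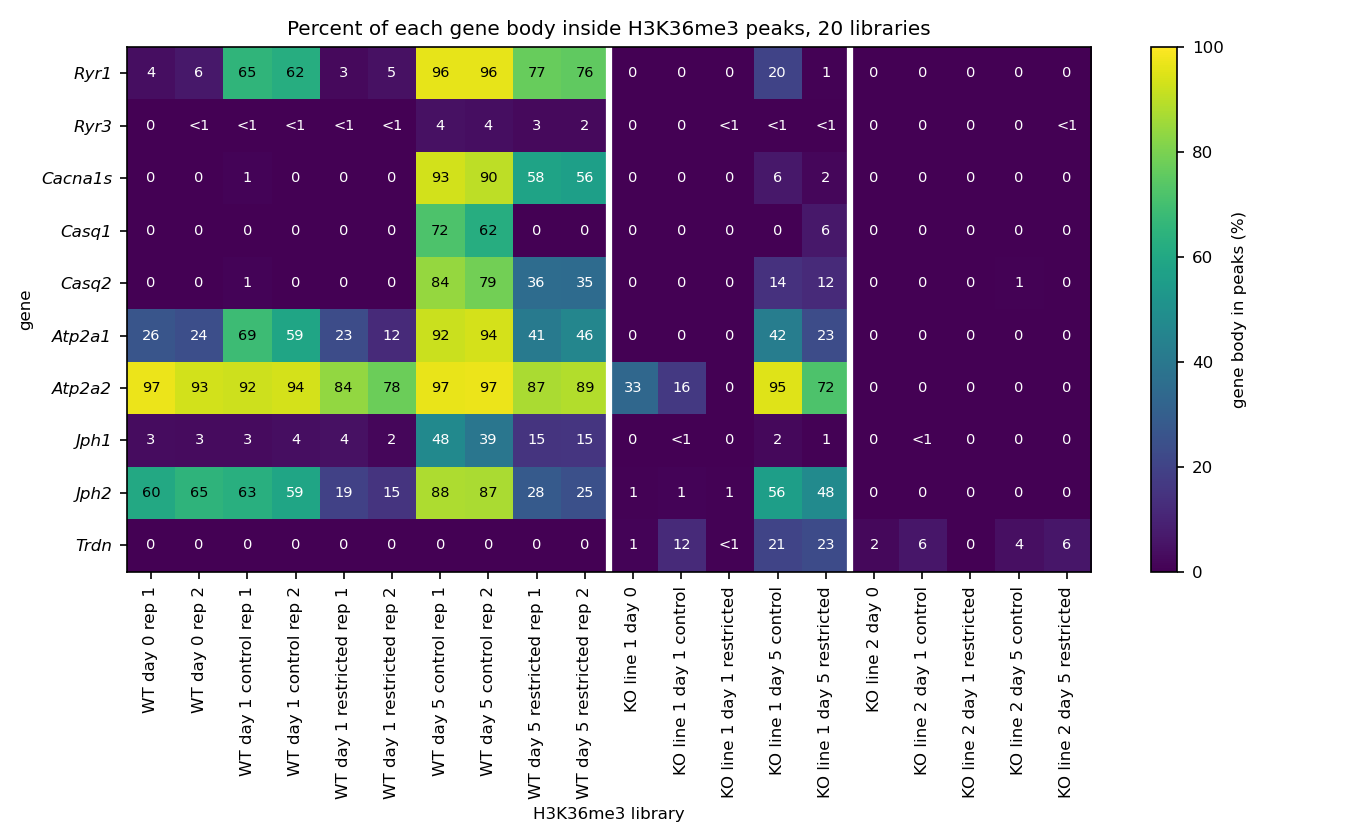
Percent of each of the 10 gene bodies (rows) inside H3K36me3 peaks in each of the 20 libraries (columns), with WT libraries at the left, KO line 1 in the middle and KO line 2 at the right; numbers in cells are rounded percents. In WT the day 5 control columns are the fullest, Atp2a2 is high throughout, and Trdn is at 0 in WT while it has cover in 9 of 10 KO libraries.

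More of the genes were covered at day 5 than at day 0 in WT cells. A gene is called marked here at 50% cover or more. In each day 0 library 2 of the 10 genes were marked, Atp2a2 and Jph2, and in each day 1 control library 4 were, with Ryr1 and Atp2a1 added. That early step depended on the lists and the limit: in strict lists, which keep only peaks from a −log10 q of 3 upward, 2 genes were marked in each day 0 library and 1 in each day 1 control library, and with the limit at 75% 1 was marked at each. In equal-length lists, in which peaks were dropped from the lowest fold up until every WT list covered about the same length, 1 gene was marked in each day 0 library, and 3 and 1 in the day 1 control libraries. In each day 5 control library 7 were marked, all but Ryr3, Jph1 and Trdn. Under restriction 1 was marked in each day 1 library, Atp2a2, and 3 in each day 5 library, Ryr1, Cacna1s and Atp2a2. Of all 19300 genes, 26.1% to 28.3% were marked at day 0, 22.1% to 23.5% in day 1 control libraries and 24.95% to 27.2% in day 5 control libraries. The shares of all genes at day 0 and day 5 thus overlapped, and those at day 5 lay above those at day 1. Under restriction 12.5% to 15.8% of all genes were marked at day 1 and 16.9% to 17.5% at day 5.

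The channels came first in order of role. Ryr1, the skeletal calcium release channel, had cover of 3.57% and 6.44% in the 2 day 0 libraries and 65.3% and 62.4% at day 1 in control medium. At day 5 in control medium it had 96.4% in both libraries. Restricted cells had 2.64% and 4.58% at day 1 and 76.7% and 75.6% at day 5. The restricted day 1 libraries thus overlapped those of day 0, while the restricted day 5 libraries lay above both day 1 control libraries.

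Cacna1s, the voltage-sensing subunit that gates Ryr1, was listed at 0 in 5 of the 6 libraries of day 0 and day 1 and had 0.795% in the sixth, a day 1 control library. Day 5 control libraries had 93.1% and 90.2% and restricted ones 57.8% and 56.3%. No restricted library overlapped a control library at day 5. Ryr3, a ryanodine receptor isoform best known from immature muscle and brain, had at most 0.166% at day 0 and day 1. Day 5 control libraries had 4.42% and 3.85% and restricted ones 2.66% and 2.49%, spread over 26 to 45 small peaks per library, of which the longest covered run was 2.38 kb. In strict lists those day 5 values were 0.220%, 0.0645%, 0.911% and 0.345% in the same order, so the order of the media turned.

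Casq1 and Casq2 encode the calsequestrins of fast fibres and of heart and slow fibres. Casq1 was listed at 0 in all 6 libraries of day 0 and day 1, had 72.0% and 62.5% in the day 5 control libraries, and was again at 0 in both restricted day 5 libraries. Without the bases shared with Gm17224, its rise to day 5 was 50.9 points against 67.2 points for the whole body. Casq2 had at most 0.953% before day 5, 84.1% and 78.6% in the day 5 control libraries, and 35.5% and 35.1% in the restricted ones. The bodies differ in length, at 10.002 kb for Casq1 and 60.1 kb for Casq2. Trdn, whose product links calsequestrin to the receptor, was listed at 0 in all 10 WT libraries over its 393 kb.

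The 2 pump genes behaved differently. Atp2a1, the pump of fast fibres, had 26.4% and 24.2% at day 0, 68.6% and 59.0% in the day 1 control libraries and 92.0% and 93.6% in those of day 5. Restricted libraries had 23.1% and 11.7% at day 1 and 41.1% and 45.7% at day 5. Atp2a2, the pump of heart, slow fibres and, in another splice form, most other cells, had between 92.5% and 97.2% in all 6 day 0 and control libraries. Restricted libraries had 83.8% and 77.7% at day 1 and 87.4% and 88.6% at day 5, all below every control library.

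The junctophilins also separated. Jph2 had 60.3% and 65.2% at day 0, 63.0% and 58.9% at day 1 and 87.7% and 87.3% in the day 5 control libraries. Its day 0 cover was 28.4% in both libraries in equal-length lists, under the limit for a marked gene. Restricted libraries had 19.4% and 14.9% at day 1 and 28.2% and 24.6% at day 5, below both day 0 libraries at each day. Jph1, the isoform restricted largely to skeletal muscle, had between 1.60% and 4.33% in all 6 libraries of day 0 and day 1. Day 5 control libraries had 47.6% and 39.4%, and both restricted libraries had 15.2%.

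**Figure D2:**
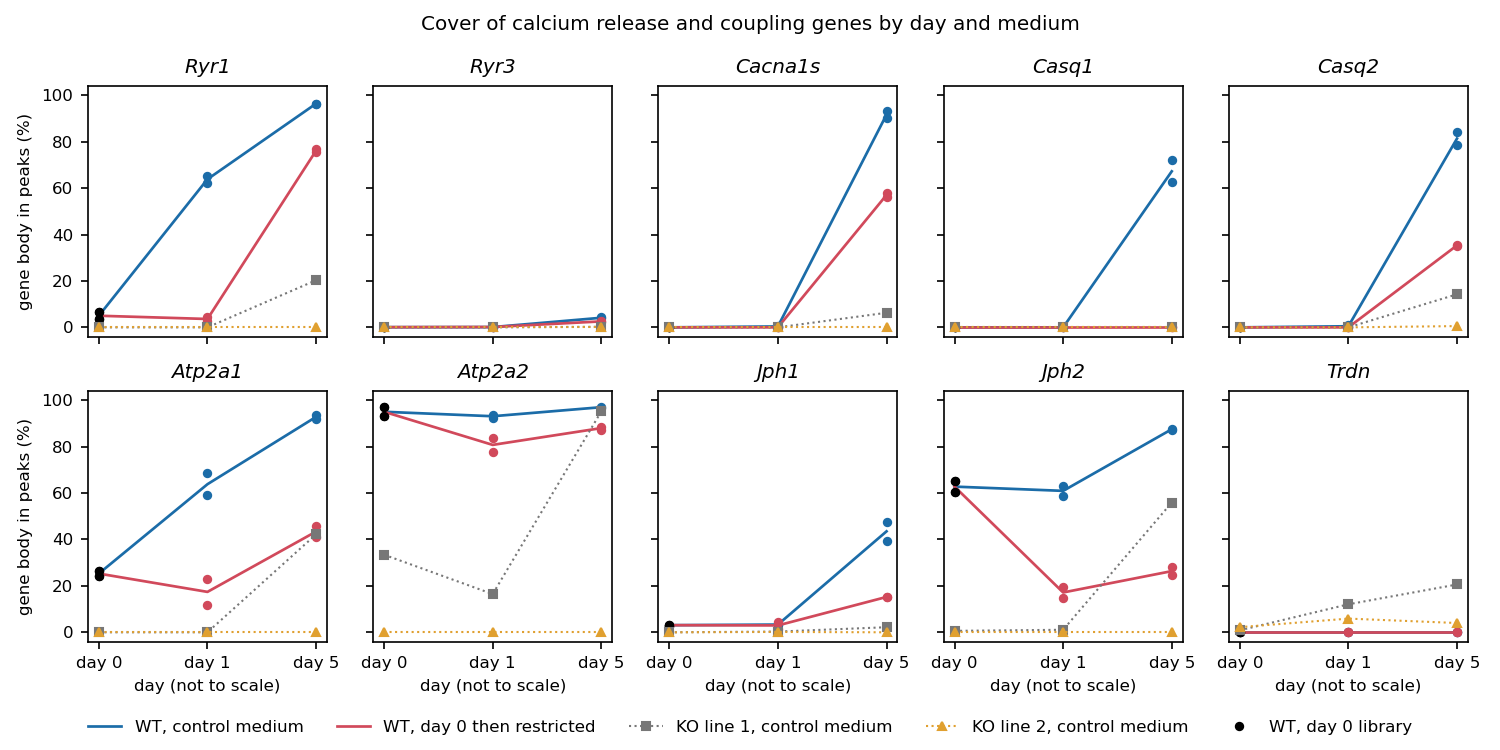
Cover of each gene (y axis, percent of gene body in peaks) at day 0, day 1 and day 5; each circle is a WT library, lines join WT means, and squares and triangles are the single libraries of the KO lines in control medium. Ryr1 and Atp2a1 rise by day 1, Cacna1s, Casq1, Casq2 and Jph1 between day 1 and day 5, and the restricted lines of Jph2 stay under its day 0 level.

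The comparison of days in control medium asks which of these genes gained the mark early and which late. Differences were tested with limma on percent cover over 9512 genes with a mean of at least 5% in the WT libraries, adjusted by Benjamini-Hochberg (BH) over all of them and called under 0.05. Ryr3, with a mean of 1.41%, and Trdn, at 0, did not pass this filter, so 8 of the 10 genes were tested. Cacna1s, Casq1, Casq2 and Jph1 passed only through their day 5 libraries, so their rises to day 5 were fixed by the filter. It did not fix the sign of their difference between media, but all their differences at day 5 are given as values with no test. Counts of calls are given over Ryr1, Atp2a1, Atp2a2 and Jph2, which reach the filter in the day 0 and day 1 libraries alone.

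Between day 0 and day 1 of control medium, 2 of these 4 genes rose and 0 fell, where 6.61% of all tested genes were called, 0.967% higher and 5.65% lower. Ryr1 rose by 58.8 points (SE 3.52, limma BH-adjusted p = 0.000319), the 99.96th percentile of all differences. Atp2a1 rose by 38.5 points (SE 5.11, limma BH-adjusted p = 0.00645). Neither gene's libraries overlapped between the days, and no other member's were apart, against 5.71% of tested genes that were higher without overlap and 49.3% that were lower. Atp2a2 and Jph2 differed by −1.92 and −1.83 points and the 4 late genes by 0 to 0.477 points, while the median over all genes was −5.30 points. In strict lists the rise of Ryr1 was 32.7 points. Both calls were lost when only the 4 libraries compared were fitted (limma adjusted p = 0.125 for both). Atp2a1 also lost its call in strict lists, at 11.5 points, and, at 24.0 points, in equal-length lists, and its limma adjusted p ranged from 0.00324 to 0.323 over 18 alternatives. The split over all genes moved from 92 higher and 537 lower to 83 and 113 in equal-length lists, where the median over all genes was −1.48 points.

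By day 5 in control medium 3 of the 4 genes had risen over day 0 and 0 had fallen, where 27.8% of all tested genes were called, 12.2% higher and 15.6% lower. Ryr1 rose by 91.4 points (SE 3.52, limma BH-adjusted p = 1.26e-06), Atp2a1 by 67.5 points (SE 5.11, limma BH-adjusted p = 2.87e-05) and Jph2 by 24.7 points (SE 3.93, limma BH-adjusted p = 0.00189). The median over all genes was −1.17 points. The differences of the late genes, untested, were 91.7 points for Cacna1s, 81.3 points for Casq2, 67.2 points for Casq1 and 40.4 points for Jph1. Atp2a2 differed by 1.97 points (SE 2.40, limma BH-adjusted p = 0.611), and its libraries overlapped. Those of Ryr1, Atp2a1 and Jph2 did not, against 25.8% of all tested genes higher and 36.1% lower without overlap. The 3 calls held under each of their 18 alternatives, but the rise of Jph2 was 46.4 points in equal-length lists. Jph1 differed by 24.5 points in strict lists and 23.2 points in equal-length lists. The split over all genes moved from 1157 higher and 1484 lower to 594 and 1429 in strict lists. Ryr3, which the filter left out, differed by 4.06 points.

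After day 1 the same 3 genes rose to day 5, against 23.1% of all tested genes called, 17.1% higher and 5.95% lower. The libraries of all 4 genes, Atp2a2 included, were apart and higher at day 5, against 47.8% of all genes higher and 18.9% lower without overlap. The untested differences were 91.3 points for Cacna1s, 80.9 points for Casq2, 67.2 points for Casq1 and 40.2 points for Jph1, so nearly all of their gain from day 0 fell after day 1. Ryr1 rose by a further 32.6 points (SE 3.52, limma BH-adjusted p = 0.000283), Atp2a1 by 29.0 points and Jph2 by 26.6 points. In strict lists the rises were 63.5 points for Ryr1, 44.2 points for Atp2a1 and 41.5 points for Jph2. The Ryr1 rise after day 1 was thus the smaller of its 2 steps in the deposited lists and the larger in strict lists, so its division between early and late depends on the lists. Jph1 differed by 24.9 points in strict lists and 22.7 points in equal-length lists. This interval and the one from day 0 to day 1 share the day 1 control libraries. The split over all genes turned with list length, from 1628 higher and 566 lower to 568 higher and 902 lower in equal-length lists, where the 3 genes still rose.

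**Figure D3:**
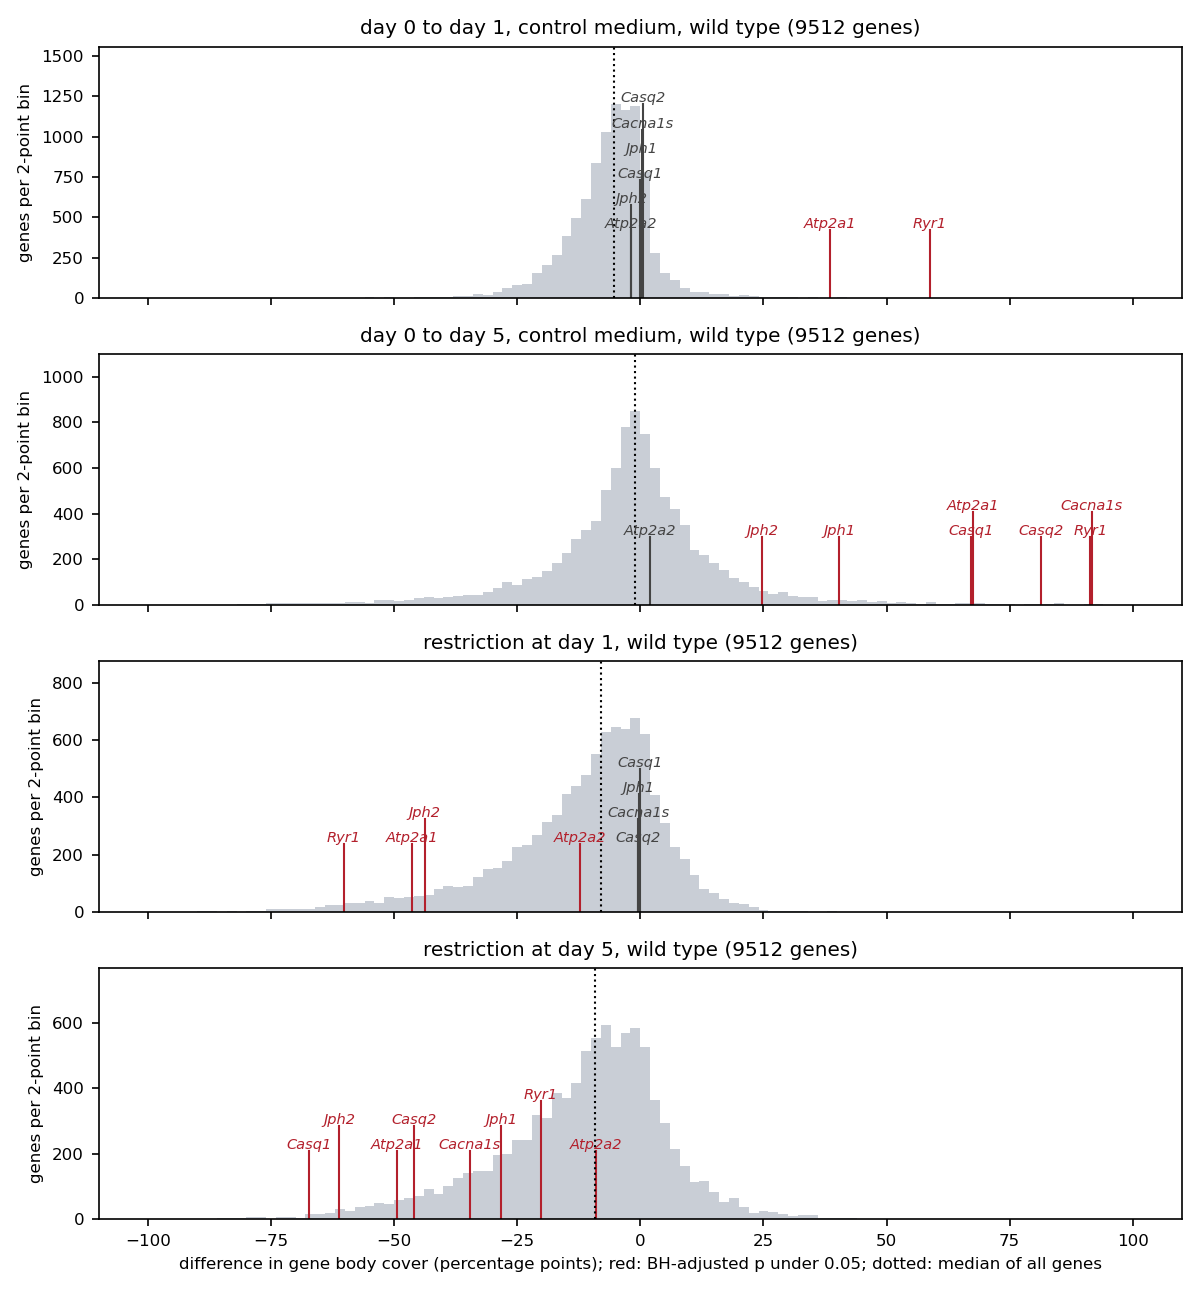
Histograms of the difference in cover (x axis, percentage points) over the 9512 tested genes in 4 WT comparisons, with the 8 tested calcium release genes as labelled lines, red where the limma adjusted p is under 0.05, and the median of all genes dotted. For Cacna1s, Casq1, Casq2 and Jph1, which passed the filter only through day 5, the colour at day 5 is not read as a test. Ryr1 and Atp2a1 stand at the far right at day 1, 7 genes lie to the right at day 5, and under restriction at day 5 all 8 lie below 0.

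Methionine restriction was compared with control medium at each day. At day 1 all 4 genes fell, where 38.4% of all tested genes were called, 36% lower and 2.38% higher. All 4 were lower with no overlap of libraries, against 59.7% of all genes lower and 10.8% higher. Ryr1 fell by 60.2 points (SE 3.52, limma BH-adjusted p = 3.09e-05), the 1.44th percentile. Atp2a1 fell by 46.4 points (SE 5.11) and Jph2 by 43.8 points (SE 3.93), at the 4.35th and 5.06th percentiles. Atp2a2 fell by 12.3 points (SE 2.40, limma BH-adjusted p = 0.00459), where the median over all genes was −7.99 points. Cacna1s, Casq1, Casq2 and Jph1 had at most 4.33% in these libraries. All 4 calls held under their 18 alternatives, but the sizes moved. In strict lists the differences were −32.7 points for Ryr1, −25.9 points for Atp2a1 and −21.7 points for Atp2a2, and in equal-length lists that of Jph2 was −24.7 points. In equal-length lists the split over all genes moved from 226 higher and 3422 lower to 677 higher and 1614 lower. The median over all genes was −3.52 points there and −10.6 points in strict lists.

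At day 5 all 4 of these genes fell under restriction, where 45.8% of all tested genes were called, 41.5% lower and 4.32% higher. None of the 4 had overlapping libraries, against 65.4% of all genes lower and 13.9% higher without overlap. Jph2 fell by 61.1 points (SE 3.93, limma BH-adjusted p = 1.75e-05), Atp2a1 by 49.4 points (SE 5.11, limma BH-adjusted p = 0.000155) and Ryr1 by 20.3 points (SE 3.52, limma BH-adjusted p = 0.00202). Atp2a2 fell by 9.01 points (SE 2.40, limma BH-adjusted p = 0.0157), near the median of −9.15 points over all genes in the deposited lists. In equal-length lists that median was −0.874 points, while Atp2a2 had a mean of 85.0% under restriction against 97.0% in control medium. The late genes, untested, differed by −67.2 points for Casq1, −46.0 points for Casq2, −34.6 points for Cacna1s and −28.3 points for Jph1. Leaving out any of the 4 day 5 libraries ended the call of Atp2a2, with limma adjusted p-values of 0.0534 to 0.0823 and 0.00519 as its lowest over 18 alternatives. The difference of Atp2a2 was −15.1 points in strict lists and −5.26 points with peaks merged across 1 kb. The calls of Ryr1, Atp2a1 and Jph2 held under all 18, and Jph1 differed by −14.3 points in equal-length lists. The split over all genes moved from 411 higher and 3944 lower to 1285 and 1683 in equal-length lists and to 610 and 2286 in strict lists.

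As a share of the control mean at day 5, the restricted mean was 90.7% for Atp2a2, 79.0% for Ryr1 and 62.2% for Cacna1s. It was 46.8% for Atp2a1, 43.4% for Casq2, 35.0% for Jph1 and 30.1% for Jph2, and Casq1 was at 0. The share kept by Casq2 was 18.3% in strict lists and 25.7% in equal-length lists. In strict lists it was thus below those of Jph1 at 20.5% and Jph2 at 19.7%, and in equal-length lists Jph1 was at 40.8% and Jph2 at 22.8%. In covered length Jph1 went from 67.8 kb to 23.7 kb and Jph2 from 54.1 kb to 16.3 kb. Their order by length lost depended on the lists: Jph1 lost 44.1 kb and Jph2 37.8 kb in the deposited lists, against 32.3 and 43.0 kb in strict lists and 22.2 and 35.7 kb in equal-length lists.

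The effect of restriction itself was compared between day 5 and day 1. Of the 4 genes with cover before day 5, 1 had a more positive effect at day 5 and 0 a more negative one, against 1.62% and 3.58% of all tested genes, or 5.2% called in either direction. That split over all genes turned, from 154 higher and 341 lower to 314 and 218 in strict lists and 342 and 245 in equal-length lists. For Ryr1 the effect was 39.96 points more positive at day 5 (SE 4.98, limma BH-adjusted p = 0.00326). Its call was lost in strict lists, where the difference was 5.46 points (limma adjusted p = 0.756), and in equal-length lists, where it was 23.6 points (limma adjusted p = 0.0546), and its lowest adjusted p over 18 alternatives was 0.000525. Casq1, Casq2, Cacna1s and Jph1 had almost no cover at day 1 in either medium, so a loss at day 1 could hardly show. Their differences of −67.2, −45.5, −34.2 and −27.9 points nearly repeat those of day 5 and were not read as tests. Equal-length lists gave Jph2 a call at −33.0 points (limma adjusted p = 0.0169, 0.0169 to 0.327 over its alternatives). The difference of Jph2 in the deposited lists was −17.4 points (SE 5.55, limma BH-adjusted p = 0.118). For Atp2a1 and Atp2a2 it was −3.02 and 3.33 points, both under 1 SE. In strict lists, with no call, Jph2 was at −31.6 points, Atp2a1 at −21.8 points and Atp2a2 at 6.56 points, and Jph1 was at −15.1 points in equal-length lists.

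Restricted cells at day 5 were also set against the day 0 myoblasts, a comparison that shares its libraries with those above. Of the 4 genes, 2 were higher than at day 0, against 4.05% of all tested genes, and 2 were lower, against 43.5%, with 47.6% called in all. The same genes had no overlap of libraries, against 10.8% of all genes higher and 64.1% lower. Ryr1 was 71.1 points higher (SE 3.52, limma BH-adjusted p = 7.90e-06) and Atp2a1 18.1 points higher (SE 5.11, limma BH-adjusted p = 0.0189). The late genes, untested, were 57.1 points higher for Cacna1s, 35.3 points for Casq2 and 12.2 points for Jph1. Jph2 was 36.4 points lower on average, at 26.4% against 62.8%, and Atp2a2 was at 88.0% against 95.0% (limma BH-adjusted p = 0.0408). Casq1 was at 0 in both groups. Ryr1 held its call under all 18 alternatives, and Jph2 lost its call in equal-length lists, where its difference shrank to −11.3 points (limma adjusted p = 0.0579, 0.000135 as its lowest). Atp2a2 was called under 9 of its 18 alternatives (limma adjusted p from 0.0132 to 0.203) and Atp2a1 under 13 (0.00455 to 0.381). In strict lists Atp2a2 was at −12.5 points and Atp2a1 at 8.10 points, and Atp2a1 was at 8.96 points in equal-length lists. Casq2 was at 13.8 and 15.01 points in strict and equal-length lists, and Jph1 at 3.74 points in strict lists.

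The position of the cover along the body was followed in the 6 genes with a known strand, with each body cut into 10 equal parts from start to end. In the day 5 control libraries cover began 0.207 to 3.09 kb after the start edge of the body. Under restriction it began farther in for each of the 5 genes that kept any. In Cacna1s the first covered base moved from 1.48 and 1.26 kb to 15.7 and 16.1 kb, and the first 2 of the 10 parts were empty. In Casq2 it moved from 3.09 and 1.47 kb to 26.6 and 27.0 kb. In Atp2a1 it moved from 0.687 and 0.207 kb to 5.35 and 5.51 kb, in Jph2 from 1.86 and 1.76 kb to 6.12 and 5.91 kb and in Ryr1 from 1.64 and 1.74 kb to 2.90 and 5.99 kb. Of the 7504 oriented genes with cover in all 4 libraries, 63.8% also began farther in with no overlap of libraries and 5.62% nearer, with a median shift of 1.27 kb, so the direction is common and the shifts of Cacna1s and Casq2 exceed the median many times over. In equal-length lists the first covered base of Cacna1s in control medium was itself at 14.4 and 5.43 kb, so that its shift shrank, while that of Casq2 was at 3.09 and 4.10 kb. In the same lists the restricted first base moved out to 20.36 and 20.44 kb in Jph2 and to 11.96 and 9.50 kb in Atp2a1, so that their shifts grew. There 43.4% of 5533 genes began farther in and 16.3% nearer, with a median shift of 0.476 kb.

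In Atp2a1 the first and last parts of the body differed. Its day 0 cover lay only in the last 3 of the 10 parts, which were covered to 88.1% and 80.6%, while the first 7 were at 0 in both libraries. In replicate 1 this was a single peak of 8.45 kb, of which 4.56 kb lay in the body, and the 20 kb after the gene were covered to 73.9%. At day 1 in control medium the first 7 parts were covered to 55.2% and 41.4%, and at day 5 to 88.6% and 90.9%. Under restriction they were again at 0 in both day 1 libraries and at 15.8% and 22.5% at day 5, while the last 3 parts were at 100% in all 4 day 5 libraries. Whether the cover at the end of Atp2a1 belongs to that gene or to a neighbour was not tested.

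**Figure D4:**
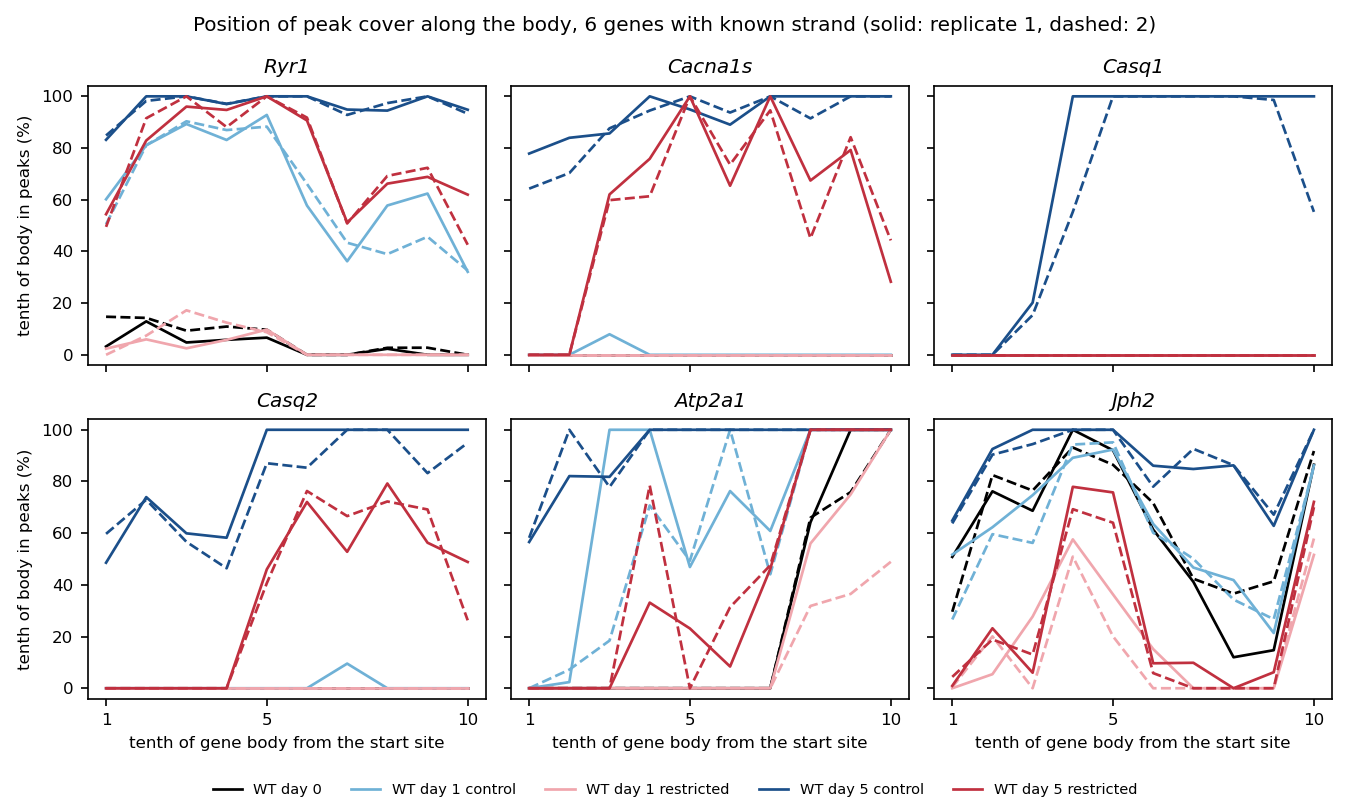
Percent of each of 10 equal parts of the gene body in peaks (y axis), from the start site at the left to the end at the right, for the 6 genes with a known strand in the 10 WT libraries; solid and dashed lines are replicates 1 and 2. Under restriction at day 5 the first 2 parts of Cacna1s and the first 4 of Casq2 are at 0, and Atp2a1 at day 0 has cover only in its last 3.

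The peaks also changed in length. At day 5 the longest covered run in Ryr1 was 43.0 and 33.6 kb in control medium and 16.9 and 25.6 kb under restriction. In Casq2 it was 37.2 and 16.7 kb in control medium and 2.87 and 3.76 kb under restriction. Ryr1 was covered by 7 and 8 peaks in control medium and by 29 and 28 under restriction, while Atp2a2 had 1 or 2 peaks in control medium and 5 in each restricted library, with runs of at least 25.2 kb in all 4. The number of peaks did not move one way over the genes. Casq2 had 8 and 16 in control medium and 16 and 13 under restriction, which overlap, and Jph2 had 12 in both control libraries and 11 and 10 under restriction. Jph1 had 43 and 35 in control medium and 18 and 25 under restriction.

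The Setd2 KO lines were compared with WT to ask how much called mark these genes kept in the lines. In KO line 1 at day 0, Atp2a2 had 33.4%, Trdn 0.850% and Jph2 0.625%, and the other 7 were at 0. At day 5 in control medium line 1 had cover on 9 of the 10 genes: Atp2a2 at 95.2%, Jph2 at 55.9%, Atp2a1 at 42.2%, Trdn at 20.6%, Ryr1 at 20.3% and Casq2 at 14.2%, with 6.29%, 2.19% and 0.244% on Cacna1s, Jph1 and Ryr3. Casq1 was the one at 0. Line 2 was at 0 on 8 of the 10 genes in that condition and had 4.00% on Trdn and 0.549% on Casq2. Its largest value on any of the genes in any condition was 6.08%, on Trdn.

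In the test of the 2 lines against WT at day 5 in control medium, 3 of the 4 genes were called lower in KO, where 83.4% of all tested genes were lower and 0.0105% higher. All 4 were lower with no overlap of libraries, as were 89.1% of all genes, with 0.0526% higher. The differences were −86.2 points for Ryr1, −71.7 points for Atp2a1 and −59.5 points for Jph2 (limma BH-adjusted p of 7.25e-09, 3.39e-05 and 0.00276). Jph2 averages a line 1 library at 55.9% and a line 2 library at 0, and without line 2 its difference was −31.6 points (limma adjusted p = 0.0414, with 0.127 as its highest over 9 alternatives). The count is near the background and says nothing particular about these genes. The late genes, untested, differed by −88.5 points for Cacna1s to −42.4 points for Jph1, which was at −25.9 points in strict lists. Atp2a2 was the exception, at −49.4 points (SE 27.7, limma BH-adjusted p = 0.112), since line 1 had 98.1% of the WT mean and line 2 had none. Without line 2 its difference was −1.81 points, and without line 1 it was called at −97.0 points (limma adjusted p = 0.00147), with a range of 0.00147 to 0.965 over 9 alternatives. Among the 9512 genes Atp2a2 ranked at the 99.5th percentile of line 1 in this library, where the median gene had 8.39%. With only the 4 libraries compared, Jph2 and Atp2a1 lost their calls (limma adjusted p of 0.127 and 0.0586, with lowest values of 4.19e-05 and 1.63e-08 over 9 alternatives).

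Under restriction at day 5, line 1 was above both WT libraries for 3 of the genes. Jph2 had 47.8% in line 1 against 28.2% and 24.6% in WT, Casq1 had 6.35% against 0, and Trdn 23.0% against 0. The other 7 were below both WT libraries. These are single libraries of 1 line, and no test was made of them.

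Trdn ran against its set. It was at 0 in all 10 WT libraries and had cover in 9 of the 10 KO libraries. In line 1 it had 0.850% at day 0, and in control and restricted medium 12.1% and 0.430% at day 1 and 20.6% and 23.0% at day 5. In line 2 it had 2.21% at day 0, and in the same order 5.90% and 0 at day 1 and 4.00% and 6.08% at day 5. The line 1 values were the higher at day 1 and day 5, and restricted day 1 was the lowest condition in both lines. In all, 7590 genes were at 0 in the 10 WT libraries. Of these 1221 had cover in at least 1 KO library and 39 in at least 8, and 33 of those 39 were at least 100 kb long, as Trdn is, against 826 of all 7590. Ranked by mean cover among the 7590, Trdn was the 41st in line 1 and the 16th in line 2. In line 1 at day 5 its cover came in 67 and 71 peaks, with a longest run of 12.01 and 7.61 kb. Peak lists of KO libraries are short and their depth is unknown, and the part of either in this cover was not tested.

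The genes with the most similar cover over the 10 WT libraries were found by the mean absolute difference in points among 9512 genes. Casq1 was closest to Plpp7 (0.915 points), Csrp3 and Txlnb, Casq2 to Trim54 (1.35 points), Ip6k3 and Lmod2, and Cacna1s to Dysf (2.06 points), Myom3 and Myh1. Among these are the membrane repair gene Dysf and the fast myosin heavy chain gene Myh1. Atp2a1 was closest to Ldb3 (4.29 points), Heg1 and Ccdc141, and Jph1 to Zfp532 (1.33 points), Zhx2 and Csdc2. Jph2 was closest to Ehd4 (5.47 points), Ahdc1 and Cdc42, and Atp2a2 to Mdm2 (0.776 points), Srcap and Sptan1. Ryr1 had the least similar neighbour, Erbb3, at 8.76 points, followed by Myom2 and Ucp2.

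Other genes of the pathway were read from 3 lists, each counted over its tested members, beside the same share over all genes. Here too some genes reached the filter only through day 5: 1 of 12, 4 of 8 and 0 of 14 in the 3 lists. Of 22 triad and reticulum partners 12 were tested, and 8 rose from day 0 to day 5 and 0 fell, beside 12.2% and 15.6% of all genes, with a median of 14.47 points. Jsrp1, a partner of the voltage sensor, rose by 69.6 points, the cation channels Tmem38a and Tmem38b by 68.8 and 66.1 points, while the reticulum protein Srl, the 1 that passed only through day 5, differed by 60.8 points. Under restriction at day 5, 8 of the 12 fell and 0 rose, beside 41.5% and 4.32% of all genes, among them Jsrp1 by 68.0 points, Tmem38a by 67.2 points and the channel subunit Cacng1 by 53.5 points. By day 1, 2 of the 12 rose, Jsrp1 by 25.9 points and Tmem38a by 24.99 points, beside 0.967% of all genes, and under restriction at day 1, 7 fell, beside 36% of all genes. Without Srl, 7 of 11 rose by day 5, 7 fell under restriction at day 5 and 6 at day 1. Ryr2, the heart ryanodine receptor, and Sln and Pvalb, an inhibitor of the pump and a calcium buffer of fast fibres, were at 0 in all 10 WT libraries.

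Of 14 genes of surface membrane excitability and the tubule 8 were tested, and 5 rose from day 0 to day 5 with 0 falling, beside 12.2% and 15.6% of all genes. Of the 4 that reached the filter before day 5, 1 rose, the sodium pump subunit Atp1b1 by 53.2 points, and the other 4 passed only through day 5. Among those, untested, Dysf differed by 84.8 points and the sodium channel Scn4a by 80.05 points. Under restriction at day 5 the 4 with earlier cover fell, beside 41.5% of all genes, among them the tubule-shaping Bin1 with a difference of −45.2 points. The differences of Scn4a and the caveolin gene Cav3, untested, were −64.6 and −48.6 points. At day 1 in control medium 0 of the 8 were called by limma, beside 6.61% of all genes, and under restriction at day 1, 3 fell, beside 36%.

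Of 16 calcium handling genes used by most cell types 14 were tested, and 4 rose from day 0 to day 5 and 1 fell, beside 12.2% and 15.6% of all genes, with a median of 0.588 points. The store-operated channel gene Orai1 rose by 50.8 points, the mitochondrial uniporter gene Mcu by 39.4 points and the surface pump gene Atp2b4 by 17.2 points, while the receptor gene Itpr3 fell by 16.1 points. Under restriction at day 5, 11 of the 14 fell and 0 rose, beside 41.5% and 4.32% of all genes, the most being the calmodulin gene Calm2 at 51.0 points, followed by Orai1 at 48.8 points, Calm3 at 43.6 points and Mcu at 38.3 points. The median at day 5 under restriction was −15.9 points for this list, beside −9.15 points for all genes. Both are from the deposited lists. In equal-length lists the median for all genes was −0.874 points, and that of this list was not taken. Between day 0 and day 1 of control medium 1 of the 14 rose and 1 fell, beside 0.967% and 5.65% of all genes, and under restriction at day 1, 10 fell and 0 rose, beside 36% and 2.38%, with a median of −16.2 points beside −7.99 points for all genes. The latter was −3.52 points in equal-length lists and −10.6 points in strict lists.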

How the data were processed

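H3K36me3 was measured in 20 C2C12 libraries, each deposited as 1 broad-peak list. Replicates were called separately. An input sample is listed and was not used directly here, and whether it was the control for the peak calls is not given. The submitters' processing notes name GRCm38. The peak caller, its control and read filters are not given in the sources used here. The fold enrichment, −log10 p, −log10 q and score of each peak are values the authors deposited. The fold enrichment and −log10 q were used only to filter or rank peaks within a list, and the score and −log10 p were not used.

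Overlapping peaks were merged, and the percent of each RefSeq gene body in peaks was taken for 19300 protein-coding genes with a body of 2 kb or more. The 9512 genes whose mean cover in the 10 WT libraries reached 5% were tested with limma 3.58.1 in R 4.3.3 (trend and robust settings). The WT model had 5 groups of 2 libraries sharing a spread, and the KO comparison used all 20 libraries with each line as a sample. Called means a BH-adjusted p under 0.05 over all tested genes. Counts of called members leave out those that reached the filter only through day 5. Alternatives were peaks from a −log10 q of 3 upward (strict lists), peaks dropped from the lowest fold up until all WT lists covered 110 Mb (equal-length lists), filters at 1% and at any cover above 0, merging across 1 kb, leaving out bases of other genes, fitting the compared libraries alone, a replicate block, and leaving out each library. Interval arithmetic and the limma step were tested on simulated data. The members, the 3 pathway lists and the markers were chosen with earlier results of these data known. Named genes are the 10 members, up to 4 called genes of each list with the largest difference, and the 3 nearest patterns of each tested member. Ryr2, Sln, Pvalb, Mcm3 and the neuron markers were named after their values were seen. The values of 1 list gene are not reported here.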

Additional observations from a re-analysis of the deposited data

Results flagged for a closer look

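For Ryr1 the effect of restriction differed between day 5 and day 1 by a test of that difference itself (limma, BH-adjusted over 9512 genes). The same fit also called Casq1, Casq2, Cacna1s and Jph1, for which it is no test. The difference, as the effect at day 5 minus that at day 1, was 39.96 points for Ryr1, −67.2 points for Casq1, −45.5 points for Casq2, −34.2 points for Cacna1s and −27.9 points for Jph1. Ryr1 had 2.64% and 4.58% in the restricted day 1 libraries, overlapping its 3.57% and 6.44% at day 0, against 65.3% and 62.4% in control medium, and 76.7% and 75.6% in the restricted day 5 libraries. Its call held under 16 of 18 alternatives and was lost in strict lists, where the difference was 5.46 points (limma adjusted p = 0.756), and in equal-length lists, where it was 23.6 points (limma adjusted p = 0.0546), with 0.000525 as its lowest adjusted p. The other 4 had at most 3.65% in the day 1 control libraries and passed the filter only through day 5, so a loss at day 1 could hardly show. Their differences nearly repeat those of day 5 and are values, not support for a change.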

How the results depend on the processing

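The counts of members here run over all 8 tested genes, of which 4 reached the filter only through day 5, so they say nothing on the stability of those 4. Of the 7 WT comparisons, the number of members called changed by more than 1.5 times in 2. Between day 0 and day 1 it fell from 2 to 1 in strict lists and in equal-length lists, and to 0 when only the libraries compared were fitted. For restricted day 5 against day 0 it fell from 7 to 4 in equal-length lists. A filter at 1% or at any cover above 0 added Ryr3 to the calls between day 0 and day 5, between day 1 and day 5 and for restricted day 5 against day 0, and the looser of these also for restriction at day 5 and for KO against WT. Ryr3 had a mean of 0.115% in the WT libraries of day 0 and day 1 and 3.35% in those of day 5. It passes 1% only through day 5, so its rises there are no test either. Its means at day 5 in strict lists were 0.142% in control medium and 0.628% under restriction, the reverse of the deposited order. Leaving out 1 library at a time gave 2, 7, 7, 4, 7 to 8, 5 and 5 to 7 members in the 7 comparisons and 7 to 8 for KO against WT. The number of all genes called was less stable. Between day 0 and day 1 it was 629, 196 in equal-length lists, 0 with the libraries compared alone (1876 at an unadjusted limma p under 0.05), and 142 to 986 without 1 library. Between day 0 and day 5 it was 2641, 1706 with the libraries compared alone and 1759 to 2659 without 1. From day 1 to day 5 it was 2194, 1295 in strict lists and 1108 to 2692 without 1. Restriction at day 1 gave 3648, 2291 in equal-length lists and 2354 to 3984 without 1. Restriction at day 5 gave 4355, 2896 in strict lists and 2721 to 4660 without 1. The difference between days gave 495, and 212 to 659 without 1. Restricted day 5 against day 0 gave 4523, and 385 higher with 4138 lower became 1088 and 2004 in equal-length lists. KO against WT gave 7936, and 6991 to 8792 without 1. Where an arm was left with 1 library, it is assumed to vary like the other groups. The cause of these changes was not tested, other than fewer genes or libraries in the fit.

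The mean number of marked genes at day 0 was 2, but 1 at 75% of the body and 1 in equal-length lists. At day 1 in control medium it was 4, but 1 at 75%, 1 in strict lists and 2 in equal-length lists, so in strict lists the step from day 0 turned to a loss of 1. At day 5 under restriction it was 3, but 5.5 at 25%.

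Differences that turned sign were all uncalled. Between day 0 and day 1, Jph1 was −0.435 points in strict lists and −0.0568 to 0.576 without 1 library, Jph2 was 8.93 in equal-length lists and −4.25 to 0.596 without 1 library (0.217 without replicate 2 of day 1 control), and Atp2a2 was −3.95 to 0.103 without 1 library. At day 5 against day 0, Atp2a2 was −0.0513 to 4.001 without 1 library. Under restriction at day 1, Jph1 was 0.222 in strict lists, 0.834 in equal-length lists and −1.73 to 0.999 without 1 library. In the difference between days Atp2a1 was 2.08 with peaks merged across 1 kb and −8.71 to 2.67 without 1 library (1.81 without replicate 2 of day 1 control).

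The deviations of same-numbered libraries from their group means correlated at −0.439 to 0.0616 over genes between groups. Such correlations cannot show whether replicate numbers pair the libraries by culture or batch, which is not given. With the replicate block the counts of all genes called were 466, 2457, 1988, 3436, 4175, 399 and 4347 in the 7 WT comparisons, in the order above, and those of members were 2, 7, 7, 4, 8, 5 and 7. Depth is unknown, so short lists and less mark cannot be told apart, and 2 libraries per group limit every estimate of the spread.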
